A study of Mus musculus with 56 samples.

Results

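The TOX family consists of 4 genes in the mouse, *Tox*, *Tox2*, *Tox3* and *Tox4*, which were taken by symbol from the 55359 genes of the count table. All 4 were present in the table. *Tox* was counted in 30 of 30 samples, *Tox4* in 29 and *Tox2* in 19, whereas *Tox3* had counts in 4 samples and did not pass the filter on low counts, so that 3 of the 4 members could be tested. *Tox* was 9.07-fold higher in the PD1+CD73+ cells and 8.11-fold higher in the PD1+CD73- cells of Sensitized+Pregnancy mice than in cells of Sensitized mice, and these were the only member comparisons that passed the edgeR test. *Tox2* was found above 3 counts in every library of the PD1+CD73+ cells and in few libraries of Naive, Sensitized and PD1- Naive+Pregnancy cells, but none of its comparisons passed the test. Group means of *Tox4* lay between 57.1 and 105 CPM (counts per 1000000 counts), and none of its comparisons passed either.

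TOX proteins are nuclear factors that bind DNA through a high mobility group (HMG) box, a domain that recognises and bends DNA. In CD8+ T cells, *Tox* is induced through calcium signalling, calcineurin and NFAT, and it is known for maintaining the chromatin state of exhausted cells that carry inhibitory receptors such as PD-1, LAG-3 and TIGIT. *Tox2* is known as a partner of *Tox* in exhausted cells and in T follicular helper cells, *Tox3* is mostly studied in neurons and breast epithelium, and *Tox4* is a broadly expressed member found in a protein phosphatase 1 complex.

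CD8+ T cells specific for OVA:Kb, termed T_FGS for fetus- and graft-specific, were sorted with tetramers from spleen and lymph nodes of individual female C57BL/6 mice that were 8 to 12 weeks old when obtained, and 200 cells per library were sequenced with SmartSeq2. Naive mice were untreated (3 samples), and Sensitized mice had rejected a skin graft from a 2W-OVA.B/c donor, which carries the model antigen, at least 30 days before (4 samples). Naive+Pregnancy (N+P) mice were mated with 2W-OVA.B/c males without a graft and sampled on post-partum days 0 to 3, as C1 (PD1-) cells (3 samples) and C5 (PD1+CD73+) cells (3 samples). Sensitized+Pregnancy (S+P) mice received the graft, were mated at least 30 days later and were also sampled on post-partum days 0 to 3. They gave C4 (PD1-) cells (6 samples), C5 (PD1+CD73+) cells (6 samples) and C7 (PD1+CD73-) cells (5 samples). The labels name no PD1 gate for Naive and Sensitized cells, and the authors describe sorting each group into its most prevalent subsets. A contrast of a PD1+ subset with these cells combines pregnancy with the sorting gate, and the 2 cannot be told apart. Against Sensitized cells, an S+P subset may also differ in the time since the graft, which cannot be told apart either.

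The 56 libraries held 6636532 to 32625243 counts, and the 30 samples made by adding up the libraries of the same mouse and subset held 15547934 to 54809406. Identical counts were found in 1 Naive library and 1 S+P C4 library, both of replicate 1, and this library was left out of both groups. The S+P C7 libraries of replicates 1 and 2 were nearly identical (r = 0.997) and were averaged and counted as 1 sample, called replicate 1 here. Fewer than 9000 genes were detected in S+P C4 replicates 2 and 3 and in S+P C7 replicate 3, which are named beside the values they touch. The summed level of 7 CD8 T cell markers was 4915 to 8149 CPM in the 30 samples, with none of the 7 at 0 in any sample. S+P C7 replicate 3 held 19870 CPM of erythroid markers and 521 CPM of NK cell markers. It had 0.0467 CPM of *Pdcd1*, which encodes PD-1, and no count of *Nt5e*, which encodes CD73. S+P C4 replicate 3 had no count of either gate gene. Sensitized replicate 1 held 345 CPM of myeloid markers, mostly *Lyz2*, and S+P C4 replicate 2 held 304.5 CPM of gamma-delta T cell markers, from *Trgv2*. These NK cell, myeloid and gamma-delta sums were the highest of the 30 samples.

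The 4 genes lie on different chromosomes of GRCm39. *Tox* (ENSMUSG00000041272) spans chr4:6686353-6991644 on the minus strand, *Tox2* (ENSMUSG00000074607) chr2:163045021-163166191 on the plus strand, *Tox3* (ENSMUSG00000043668) chr8:90972261-91075014 on the minus strand and *Tox4* (ENSMUSG00000016831) chr14:52516587-52533858 on the plus strand. The most conserved stretch of their coding sequences is shown because it is where reads of the members would be most alike. It lies in exon 5 of each canonical GENCODE M39 transcript, codes for part of the HMG box, and is given in the coding direction, with capitals for the bases shared by all 4 genes.
Tox, chr4:6722196-6722315, minus strand: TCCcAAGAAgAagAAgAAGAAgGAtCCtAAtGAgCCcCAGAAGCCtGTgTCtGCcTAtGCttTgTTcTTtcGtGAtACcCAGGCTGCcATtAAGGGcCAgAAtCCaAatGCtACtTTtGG
Tox2, chr2:163157765-163157884, plus strand: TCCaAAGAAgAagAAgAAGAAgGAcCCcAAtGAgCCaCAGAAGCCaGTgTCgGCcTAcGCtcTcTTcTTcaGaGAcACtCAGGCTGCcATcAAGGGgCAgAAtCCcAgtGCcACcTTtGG
Tox3, chr8:90980961-90981080, minus strand: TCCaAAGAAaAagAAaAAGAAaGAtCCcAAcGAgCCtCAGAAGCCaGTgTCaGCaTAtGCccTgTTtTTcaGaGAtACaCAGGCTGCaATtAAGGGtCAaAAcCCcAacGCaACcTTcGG
Tox4, chr14:52524811-52524930, plus strand: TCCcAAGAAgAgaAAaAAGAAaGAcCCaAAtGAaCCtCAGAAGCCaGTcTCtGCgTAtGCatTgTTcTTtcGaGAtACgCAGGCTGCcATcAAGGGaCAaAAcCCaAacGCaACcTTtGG

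In this stretch 84 of 120 bases (70%) were identical in the 4 genes, against 404 of 1317 aligned coding positions (30.7%) over the whole coding sequence. Between pairs of members, identity over the coding sequence ran from 49.4% for *Tox2* and *Tox4* to 58.3% for *Tox* and *Tox2*. The longest run of identical bases between any 2 canonical transcripts was 14 to 24 bases, shorter than the 150-base reads, and reads that aligned to more than 1 place were not counted. On the opposite strand, Gm11802 lies within *Tox*, and *Rab2b* and *Mettl3* overlap the ends of *Tox4*. The strand setting of the counting is not given in the sources used here, so reads of the overlaps cannot be told apart by strand. Gm11802 held 8351 counts over the 30 samples, against 219433 for *Tox*, and reached 61.6 CPM in S+P C4 replicate 3 and at most 24.2 CPM elsewhere. *Rab2b* held 5934 counts and *Mettl3* 24406 over the whole of each gene, against 68579 for *Tox4*.

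*Tox* was expressed at 66.4, 79.1 and 88.0 CPM in the 3 Naive samples. In the 4 Sensitized samples it was at 38.2, 52.0, 37.3 and 46.4 CPM, and every Sensitized sample was below every Naive sample. The difference did not pass the test (log2 fold change -0.84, 95% interval -1.94 to 0.26, edgeR adjusted p = 0.762), in a comparison where 0.153% of the 19657 genes tested were called and 3.81% were lower without overlap. In bulk samples of this kind, fewer cells expressing a gene and less RNA per expressing cell cannot be told apart.

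**Figure D1:**
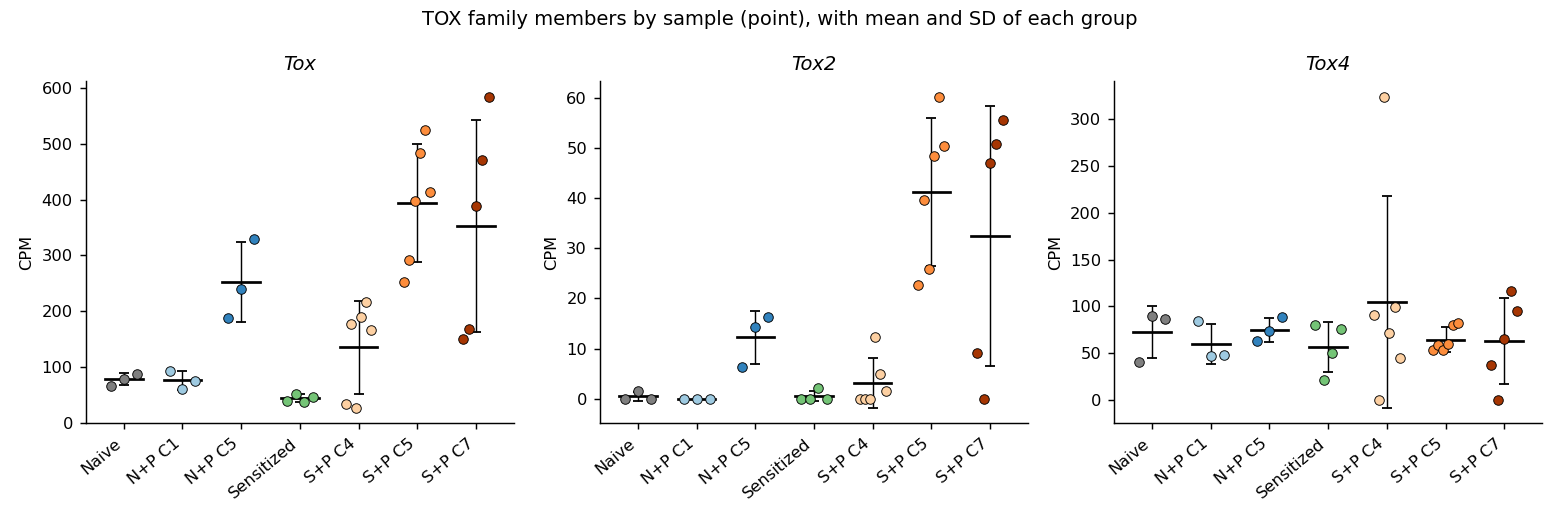
Levels of *Tox*, *Tox2* and *Tox4* in CPM (linear vertical axes) in each of the 30 samples (points) of the 7 groups, with the group mean (bar) and SD (whiskers). *Tox* lies at 252 CPM or above in every S+P C5 sample and at 52.0 CPM or below in every Sensitized sample, S+P C4 and S+P C7 split into low and high samples, and *Tox4* group means stay between 57.1 and 105 CPM.

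After pregnancy without a graft, the PD1- and PD1+ subsets lay apart in *Tox* without passing the test. The N+P C1 samples were at 93.4, 59.9 and 74.8 CPM (76.0 ± 16.8, SD, n = 3), 1 above, 1 below and 1 within the range of the Naive samples (77.8 ± 10.9, SD, n = 3). The N+P C5 samples were at 188, 241 and 329 CPM (252 ± 71.4, SD, n = 3). All 3 N+P C5 samples were above all Naive and all N+P C1 samples.

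On the log2 scale *Tox* was 1.70 higher in N+P C5 than in Naive cells (SE 0.60, 95% interval 0.48 to 2.91, p = 0.00782, edgeR adjusted p = 0.764) and 1.73 higher than in N+P C1 cells (SE 0.60, 95% interval 0.51 to 2.95, p = 0.00683, adjusted p = 0.919). Neither contrast passed the threshold of an adjusted p under 0.1 with an absolute log2 fold change above 0.9, which 0.0407% of genes passed against Naive and 0.00509% against N+P C1. Among all genes, 7.4% were higher without overlap in N+P C5 than in Naive samples, and 5.48% than in N+P C1 samples. N+P C1 and Naive cells were separated by -0.03 (95% interval -1.22 to 1.15, adjusted p = 1).

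In S+P mice, the PD1+ subsets carried the highest *Tox* means. The 6 S+P C5 samples were at 252, 291, 397, 484, 525.5 and 414 CPM in replicates 1 to 6 (median 405). All 6 were above the highest Sensitized sample. The 5 S+P C7 samples were at 150 (replicate 1), 167 (replicate 3), 389 (replicate 4), 471 (replicate 5) and 585 CPM (replicate 6), and all 5 were likewise above all Sensitized samples. Replicates 4 to 6 were the high S+P C7 samples and replicates 1 and 3 the low ones, and replicates 4 to 6 were also the highest in S+P C5. This order did not hold in S+P C4, where replicate 2 (177 CPM) was above replicate 6 (165 CPM). The authors report independent experiments, which the labels do not assign to replicates, and a batch was not tested. The coefficient of variation was 54% in S+P C7 and 27% in S+P C5.

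*Tox* rose in S+P C5 relative to Sensitized cells by 3.18 on the log2 scale (SE 0.53, 95% interval 2.10 to 4.26, p = 1.08e-06, edgeR adjusted p = 0.0117), with 0.0712% of genes called. It had the smallest p of the 19657 genes in this contrast, and 1.45% of genes were higher in S+P C5 without overlap. *Tox* rose in S+P C7 by 3.02 (SE 0.53, 95% interval 1.94 to 4.10, p = 2.91e-06, adjusted p = 0.0191), with 0.0305% of genes called and 0.773% higher without overlap. Without the 3 samples of fewer than 9000 genes, the 2 changes were 3.21 and 3.20. The S+P C7 call was lost when any of the 4 Sensitized samples was left out, with adjusted p between 0.109 and 0.157, whereas the S+P C5 call was kept in all 30 fits that each left out 1 sample. The 2 contrasts share the Sensitized samples. Over the 12 comparisons of groups, *Tox* had an unadjusted p under 0.05 in 7 with edgeR, which called 2 of them. Over all genes, 9.46% of the edgeR tests in these comparisons had such a p. DESeq2 on the same samples called *Tox* in 7, while it called between 2.47% and 5.32% of all genes in these comparisons.

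The PD1- S+P C4 cells varied most in *Tox* of the 7 groups, with a coefficient of variation of 61.4%. The samples were at 33.9, 177, 26.9, 189, 217 and 165 CPM in replicates 1 to 6. Replicates 1 and 3 were below the lowest Sensitized sample, and the other 4 were above the highest. Of the samples with few detected genes in this group, replicate 2 was among the high samples and replicate 3 was the lowest.

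The log2 difference between S+P C4 and Sensitized cells was 1.64 (SE 0.49, 95% interval 0.64 to 2.63, p = 0.00209, edgeR adjusted p = 0.317), where 0.00509% of genes were called and 4.14% were higher at an unadjusted p under 0.05. Within S+P mice, all 6 C5 samples were above all 6 C4 samples, a separation that 0.585% of genes had in this direction. *Tox* was 1.55 higher in C5 than in C4 (SE 0.42, 95% interval 0.69 to 2.40, p = 0.000875, adjusted p = 0.297). Of all genes, 0.0305% were called between C5 and C4. C7 was 1.39 higher than C4 (SE 0.43, 95% interval 0.50 to 2.27, p = 0.00314, adjusted p = 0.244), with 3 of 5 C7 samples above the highest C4 sample. C7 and C5, which differ in the CD73 gate, were separated by -0.16 with a 95% interval of -1.04 to 0.72.

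**Figure D2:**
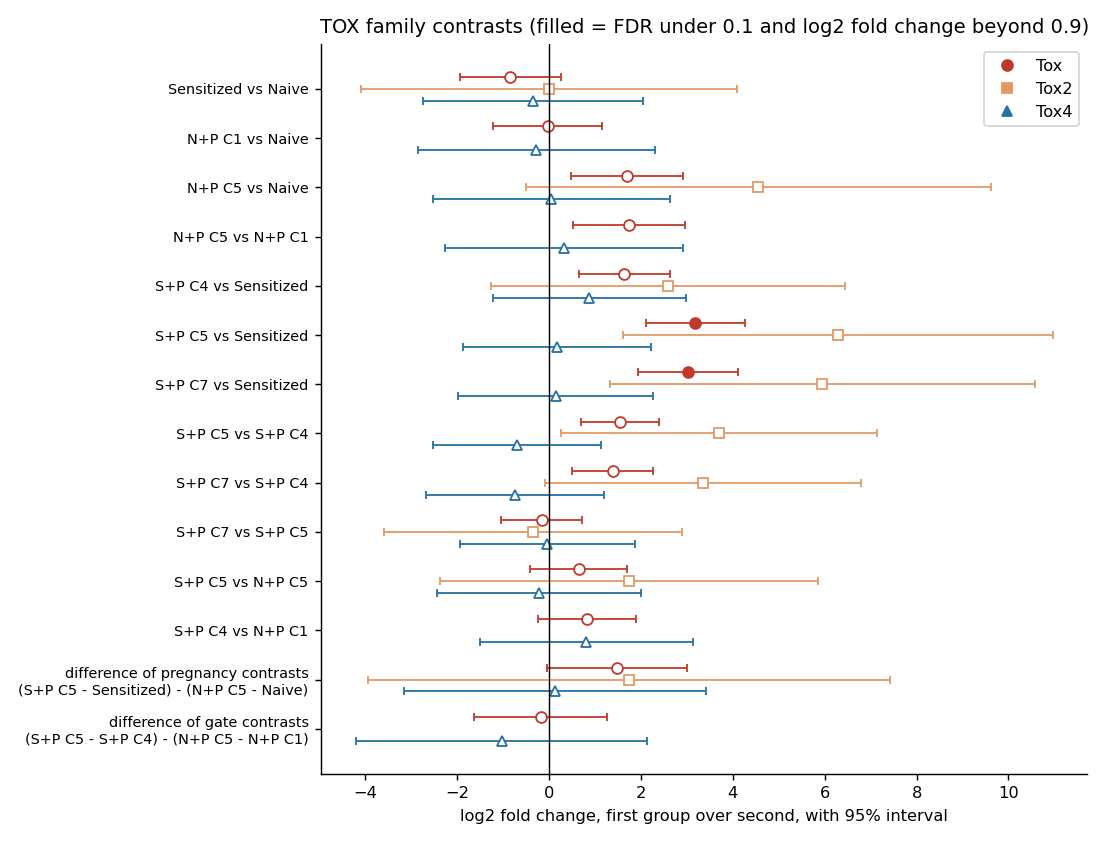
Log2 fold changes (horizontal axis, first group over second) of *Tox*, *Tox2* and *Tox4* from the edgeR fit in each contrast, with 95% intervals. The filled symbols, *Tox* in S+P C5 and S+P C7 against Sensitized at 3.18 and 3.02, are the only calls, and *Tox2* is not drawn where N+P C1 had no count.

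Pregnancy with and without prior sensitization was also compared directly. *Tox* in S+P C5 cells was 1.56-fold that in N+P C5 cells, with 4 of 6 S+P samples above the highest N+P sample, and the log2 difference of 0.64 (95% interval -0.41 to 1.70, edgeR adjusted p = 1) did not pass the test. Between the PD1- subsets, S+P C4 exceeded N+P C1 by 0.83 (95% interval -0.24 to 1.89, adjusted p = 0.698). The change from Sensitized to S+P C5 was larger than the change from Naive to N+P C5 by 1.48 on the log2 scale (SE 0.75, 95% interval -0.04 to 3.01, p = 0.0565, adjusted p = 0.81), so a difference between the 2 changes was not shown. The step from the PD1- to the PD1+CD73+ subset differed between S+P and N+P mice by -0.19 (95% interval -1.64 to 1.27).

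By mean level, *Tox* ranked from S+P C5 (394 CPM), S+P C7 (352), N+P C5 (252), S+P C4 (135), Naive (77.8), N+P C1 (76.0) to Sensitized (43.5). The samples of neighbours in this order overlapped, except for N+P C1 and Sensitized. That pair was not tested, and the share of all genes without overlap was not counted for it.

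*Tox2* was not counted in any of the 3 N+P C1 samples and was at 0, 1.56 and 0 CPM in the Naive samples. The N+P C5 samples were at 6.30, 14.4 and 16.2 CPM (12.3 ± 5.28, SD, n = 3), above all samples of both groups. Of all genes, 7.4% were likewise higher without overlap against Naive and 5.48% against N+P C1 samples. Set against a floor of 3 counts per N+P C1 sample, the *Tox2* mean in the C5 samples was at least 118-fold higher (p = 0.00228, edgeR adjusted p = 0.919). Against Naive the log2 difference was 4.55 (SE 2.48, 95% interval -0.51 to 9.61, adjusted p = 0.764). This value rests on Naive replicate 2, without which no Naive sample had a count. The 0 of Naive replicate 1 rests on 1 library, and the library left out of this sample and of S+P C4 held 29 counts of *Tox2*. Neither comparison passed the test.

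In Sensitized cells *Tox2* was at 0, 0, 2.06 and 0.0260 CPM, and the last value rests on 1 count. In S+P C5 it was at 22.6, 39.7, 25.8, 48.3, 60.2 and 50.3 CPM in replicates 1 to 6 (median 44.0), with replicates 4 to 6 the highest. All 6 samples were above all Sensitized samples, as was so for 1.45% of genes, and above all N+P C5 samples. In S+P C7 it was at 9.05, 0, 47.0, 50.9 and 55.5 CPM, where the sample at 0 is replicate 3, the sample with almost no *Pdcd1* and no *Nt5e*. The 2 samples with the lowest *Tox* in S+P C7 were thus also the 2 with the lowest *Tox2*.

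S+P C4 replicates 1, 2 and 3 had no count of *Tox2*, and replicates 4, 5 and 6 were at 12.4, 4.88 and 1.66 CPM. Replicate 2 therefore combined 177 CPM of *Tox* with no *Tox2* count, in a sample with 8002 detected genes and 0.0521 CPM of *Tox4*. In replicate 3, 7436 genes were detected. Replicates 1, 2 and 3 rest on 1 library each, and the library left out of replicate 1 held 29 counts of *Tox2*. A missed transcript and an absent one cannot be told apart in these samples.

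The log2 difference of *Tox2* from Sensitized cells was 6.29 for S+P C5 (SE 2.29, 95% interval 1.62 to 10.96, p = 0.0101, edgeR adjusted p = 0.277) and 5.95 for S+P C7 (SE 2.27, 95% interval 1.32 to 10.6, p = 0.0136, adjusted p = 0.473). Means were 78.8-fold and 62.2-fold that of Sensitized cells, whose mean of 0.522 CPM comes almost entirely from replicate 3, without which 1 count remained in that group. Within S+P mice, C5 was 3.70 higher than C4 (SE 1.68, p = 0.0354, adjusted p = 0.328) without overlap, as were 0.585% of genes. C7 differed from C5 by -0.34 (95% interval -3.59 to 2.90). S+P C5 was 3.35-fold N+P C5 in mean, a log2 difference of 1.74 with a 95% interval of -2.37 to 5.86, and 0.967% of genes were higher in this comparison without overlap. S+P C4 was at least 30.2-fold higher than N+P C1, on the same floor, with 3 of 6 samples at 0 (adjusted p = 0.443). None of the 12 *Tox2* comparisons of groups passed the test with edgeR. An unadjusted p under 0.05 was found in 6, beside 9.46% of the tests over all genes. These 6 include comparisons with N+P C1, which had no count. DESeq2 on the same samples called 4, beside 2.47% to 5.32% of all genes.

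The technical duplicate libraries of the same mouse and subset bear on how far low values can be read. In the 23 samples with 2 usable libraries, *Tox* differed between them by a median of 1.28-fold (1.00 to 3.64-fold), and the widest pair was in Sensitized replicate 1, at 61.3 and 16.8 CPM. *Tox2* differed by a median of 1.52-fold in the 13 pairs with counts in both libraries. In 3 pairs *Tox2* was at 0 in 1 library and had 47, 68 or 75 counts in the other, in Naive replicate 2, Sensitized replicate 3 and S+P C4 replicate 6. The nonzero Naive value and the highest Sensitized value of *Tox2* thus each came from 1 of 2 libraries.

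**Figure D3:**
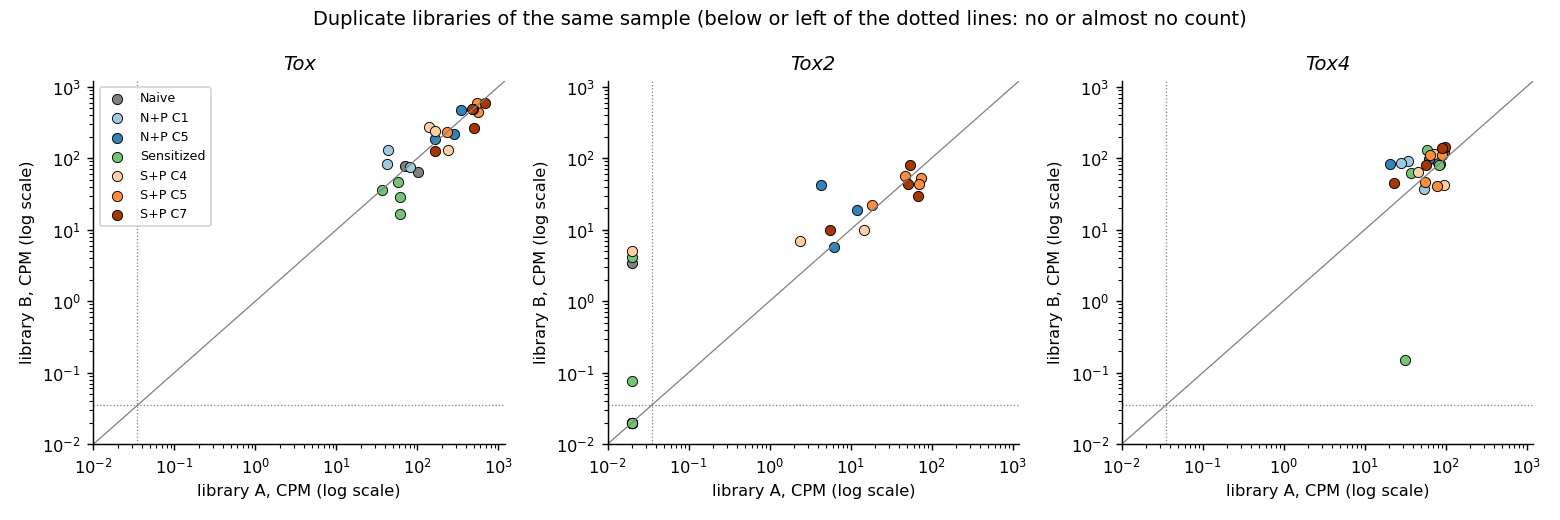
CPM of *Tox*, *Tox2* and *Tox4* in library A (horizontal) against library B (vertical) of the same sample, both on log scales, for the 23 samples with 2 usable libraries. *Tox* pairs lie near the diagonal (median 1.28-fold apart), whereas 3 *Tox2* pairs have no count in 1 library and more than 3 in the other, and 1 *Tox4* pair differs 207-fold.

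Over libraries, more than 3 *Tox2* counts were found in 6 of 6 libraries of N+P C5, 10 of 10 of S+P C5 and 8 of 9 of S+P C7. The same was true of 5 of 9 libraries of S+P C4, 1 of 8 of Sensitized, 1 of 5 of Naive and 0 of 6 of N+P C1. *Tox2* was thus above the floor in every library of the 2 PD1+CD73+ groups.

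*Tox3* was at or near 0 throughout. It had 66 counts (2.72 CPM) in Naive replicate 1, 7 counts (0.228 CPM) in S+P C7 replicate 4, 2 counts in N+P C1 replicate 3 and 1 count in S+P C4 replicate 6. The other 26 samples had none, and only the Naive and S+P C7 values exceed the floor of 3 counts. Naive replicate 1 is the sample from which the library shared with S+P C4 had been left out, so its value rests on 1 library. This gene did not enter the edgeR tests.

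*Tox4* was at 41.2, 90.0 and 86.9 CPM in Naive samples, 84.7, 46.7 and 48.2 in N+P C1 and 62.9, 73.8 and 88.4 in N+P C5. It was at 80.2, 21.9, 50.7 and 75.5 CPM in Sensitized samples, and ran from 53.2 through a median of 59.2 to 82.2 in S+P C5. These ranges all overlap. S+P C4 spread furthest, with 90.5, 0.0521, 324, 71.5, 99.5 and 44.8 CPM in replicates 1 to 6, where both extremes are the samples with few detected genes. S+P C7 was at 38.0, 0, 65.3, 116 and 95.02 CPM, and the sample at 0 is replicate 3.

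Of the 12 *Tox4* comparisons of groups edgeR and DESeq2 called 0, and 0 had an unadjusted p under 0.05. The samples overlapped in each, and the edgeR adjusted p was 0.901 or above. The log2 difference from Sensitized cells was 0.18 for S+P C5 (95% interval -1.87 to 2.22), 0.14 for S+P C7 (-1.98 to 2.26) and 0.88 in S+P C4 (-1.22 to 2.97). From Naive to N+P C5 it was 0.05 (-2.53 to 2.63). The upper bounds of 2.22 and 2.26 in the PD1+ subsets lie below the changes of 3.18 and 3.02 measured for *Tox*. The lower bounds of the *Tox* intervals, 2.105 and 1.94, lie below these upper bounds, so the intervals overlap. The difference between the 2 genes was not tested.

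Per kilobase of exon, the members could be set beside each other. In Naive cells the mean level was 10.04 CPM per kb for *Tox* and 9.37 for *Tox4*, and in Sensitized cells 5.61 and 7.36. The S+P C5 means were 50.8 for *Tox*, 11.3 for *Tox2* and 8.32 CPM per kb for *Tox4*, and the S+P C7 means 45.5, 8.90 and 8.11. *Tox4* was thus above *Tox* in mean length-scaled level in Sensitized cells, and *Tox2* was above *Tox4* in both PD1+ subsets of S+P mice. In N+P C5 *Tox* was at 32.6, *Tox4* at 9.67 and *Tox2* at 3.37 CPM per kb. These orders between genes are descriptions of group means and were not tested.

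**Figure D4:**
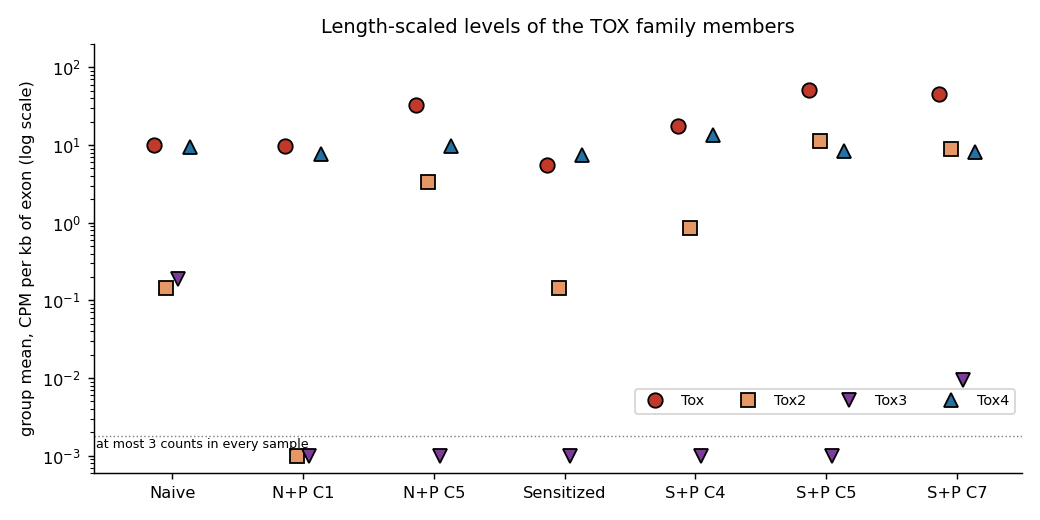
Group mean levels of the 4 members per kilobase of exon (vertical axis, CPM per kb, log scale) in the 7 groups, with symbols for genes. *Tox4* stays between 7.36 and 13.5 CPM per kb, *Tox* runs from 5.61 (Sensitized) to 50.8 (S+P C5), *Tox2* reaches 11.3 in the latter, and symbols under the dotted line had at most 3 counts in every sample.

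Genes known to act upstream of *Tox* were read from a list of 11 NFAT, calcineurin and NR4A genes, all tested. With edgeR none was called in any comparison of groups, and of 132 tests 13 were higher (9.85%) and 2 lower (1.52%) at an unadjusted p under 0.05. Over all genes in the same 12 comparisons, 5.28% of tests were higher and 4.19% lower at that p. These comparisons share groups, so the tests of a gene are not independent, here and in the lists below. In S+P C5 against Sensitized cells 2 were higher and 1 lower at an unadjusted p under 0.05, 7 had a positive log2 fold change, and their median was 0.41, beside -0.01 for all genes. In this contrast 5.26% of all genes were higher and 7.72% lower at that p. *Nfatc1*, an NFAT factor induced by its own pathway, averaged 121 CPM in Sensitized cells against 324 CPM in S+P C5 (log2 difference 1.42, SE 0.35, p = 0.000308, edgeR adjusted p = 0.205), without overlap, and was at 91.6 CPM in Naive and 252 CPM in N+P C5 cells. *Nfat5*, an NFAT-related factor of the osmotic stress response that is not controlled by calcineurin, averaged 28.5 and 148 CPM in Sensitized and S+P C5 (2.38, SE 0.60, adjusted p = 0.234). *Ppp3ca*, a catalytic subunit of calcineurin, had its smallest p between S+P C7 and C5 (1.62 higher in C7, adjusted p = 0.281).

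Of 9 receptors and factors tied to *Tox* in exhausted cells, all had a positive log2 fold change in S+P C5 against Sensitized cells, with a median of 2.51. At an unadjusted p under 0.05, 5 were higher and none lower, and over all comparisons of groups 34 of 108 tests of this list were higher at that p (31.5%, beside 5.28% of all tests) and 0 lower (beside 4.19%). *Pdcd1* is part of that count, the comparisons share groups, and the list was chosen with earlier results known. The share is therefore a description and no test of the list. *Tigit*, an inhibitory receptor, was the member of this list that was called in S+P C5 against Sensitized cells. Its mean was 12.9 CPM in Sensitized cells against 433 CPM in the S+P C5 gate and 101 CPM in S+P C4. The rise from Sensitized to S+P C5 was 5.07 on the log2 scale (SE 1.10, edgeR adjusted p = 0.0891). *Lag3*, an inhibitory receptor for MHC class II, was at 15.5 and 361 CPM (4.54, SE 1.47, adjusted p = 0.277). *Pdcd1* encodes the protein used in the gate, and its higher level in PD1+ subsets is what the sort selected.

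In N+P C5 against Naive cells the same list had 8 of 9 positive log2 fold changes, a median of 4.10 beside 0.00 for all genes, and 5 genes higher at an unadjusted p under 0.05, which 3.23% of all genes were. *Entpd1*, which encodes the ectonucleotidase CD39, was called (adjusted p = 0.0801), at a mean of 23.1 CPM in N+P C5 and 0.0263 CPM in Naive cells. It was also called in Sensitized against Naive cells (mean 33.6 CPM, adjusted p = 0.0189), where *Tox* was lower and not called. In S+P C7 against Sensitized cells 8 of the 9 were positive with a median of 2.58 and none was called.

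Fate and partner genes mostly did not pass the test. *Satb1*, a chromatin organiser of naive T cells, was the fate factor called most often. Relative to Sensitized cells it fell by 2.74 on the log2 scale in C5 of S+P mice (SE 0.52, edgeR adjusted p = 0.0339) and fell by 2.82 in C7 (adjusted p = 0.0692). Relative to S+P C4 it fell by 3.53 in C5 (adjusted p = 0.00182) and fell by 3.61 in C7 (adjusted p = 0.00538). Its highest S+P C5 sample, at 41.3 CPM, was below its lowest S+P C4 sample, at 79.8 CPM. *Id2*, an inhibitor of E proteins that favours effector cells, rose by 2.46 in Sensitized against Naive cells (SE 0.40, adjusted p = 0.00217) and by 1.94 in S+P C4 against N+P C1 cells (adjusted p = 0.0263), a comparison in which 0.061% of genes were called. *Tbx21*, which encodes T-bet, had its smallest p in the last contrast (3.84, SE 1.22, adjusted p = 0.443). The other 6 of the 9 fate factors were not called in any contrast.

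Among 5 other HMG-box factors of T cells none was called, and of 60 tests 8 were higher (13.3%) and 12 lower (20%) at an unadjusted p under 0.05, beside 5.28% and 4.19% of all tests. *Hmgb2*, a chromatin protein abundant in dividing cells, differed by 1.49 between S+P C7 and C4 (SE 0.34, edgeR adjusted p = 0.244). *Lef1* differed by -1.91 between S+P C5 and C4 (adjusted p = 0.297) and *Tcf7* by -1.24 between S+P C7 and C5 (adjusted p = 0.278), both being factors of naive and stem-like T cells. Of 5 genes of the phosphatase 1 complex that holds TOX4 and 9 of the HBO1 acetyltransferase complex linked to TOX, none was called by edgeR. The first list had 2 tests of 60 higher and 2 lower at an unadjusted p under 0.05 (3.33% each), below both shares over all genes. Its smallest p belonged to *Wdr82* (S+P C7 against C4, -1.91, adjusted p = 0.244), followed by *Ppp1cc* and *Ppp1cb*. Of the HBO1 list none reached an unadjusted p under 0.05 in any contrast, and *Jade3*, *Jade2* and *Brd1* had the smallest, at 0.181, 0.186 and 0.277.

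Genes whose pattern was most like that of *Tox* were ranked by Spearman's rho over the 30 samples among 9650 genes with a mean of at least 5 CPM. The 8 nearest were *Tigit* (0.891), *Phactr2* (0.874), *Cd200* (0.873), *Tox2* (0.873), *Rtn3* (0.862), *Tbc1d4* (0.856), Gm4956 (0.856) and *Maf* (0.855). *Tox2* was thus among the 4 genes nearest to *Tox*, whereas *Tox4* had a rho of 0.138 with *Tox* and 0.249 with *Tox2*. *Cd200*, which encodes a surface glycoprotein with an inhibitory receptor on myeloid cells, averaged 2.41 CPM in Naive and 4.46 in Sensitized cells, 230 and 307 in the PD1+CD73+ cells of N+P and S+P mice, and 92.8 in S+P C7. For *Tox2* the 5 nearest were *Tnfsf4* (0.927), which encodes OX40 ligand, *Nsmaf* (0.894), *Phactr2* (0.887), 1700019D03Rik (0.886) and *Tigit* (0.885). For *Tox4* they were *Tnpo3* (0.658), *Rbl2* (0.648), *Nampt* (0.641), *Ptcd3* (0.639) and *Nubp1* (0.620), all below the values for *Tox* and *Tox2*. The points share sequencing depth, the sorting gate and, among S+P and N+P subsets, the mouse, and no test was made.

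**Figure D5:**
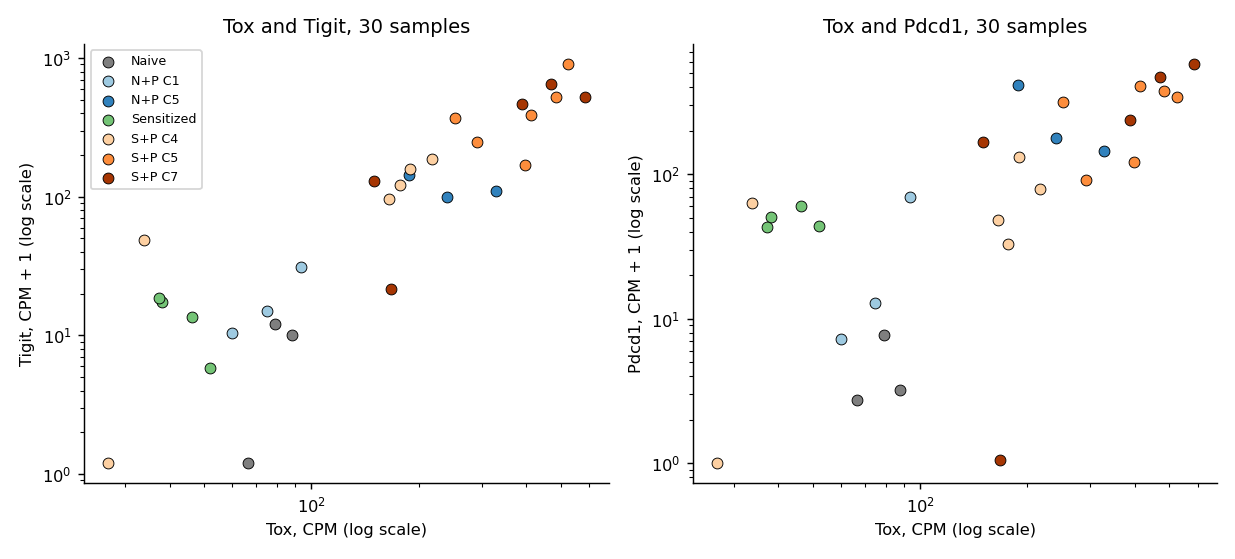
*Tox* (horizontal axis, CPM, log scale) against *Tigit* (left) and *Pdcd1* (right) (vertical axes, CPM + 1, log scale) in the 30 samples, coloured by group. The rho with *Tigit* is 0.891, and S+P C7 replicate 3 is a point of 167 CPM *Tox* with almost no *Pdcd1*.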

How the data were processed

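Spleen and lymph node suspensions came from individual mice, and 200 cells were sorted per library for SmartSeq2 with paired 150-base reads. The authors deposited raw counts per gene, made with Cutadapt 3.4, STAR 2.6.1b on GRCm39 and featureCounts 2.0.1 after removal of reads without a unique place. The annotation release and strand setting are not given in the sources used here. GENCODE M39 held 54749 of the 55359 gene IDs and gave positions, exon lengths and, with mafft 7.526, the coding alignment. Low counts are imprecise, and a floor of 3 counts covers counting error only.

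Technical libraries were summed per mouse and subset, and the identical library and the nearly identical pair were handled as the report states. Counts of the 30 samples were fitted in R 4.3.3 with edgeR 4.0.16 by the robust quasi-likelihood method (two-sided, all 7 groups, TMM scaling, filterByExpr at min.count 10), with Benjamini-Hochberg adjustment over 19657 genes. Calls required an adjusted p below 0.1 and a log2 fold change beyond 0.9 in either direction. CPM used TMM-scaled library sizes, and per-kb values divide by exon length. The fits were tested on simulated counts. DESeq2 1.42.0, the separate libraries, other filters and scalings, and leaving out samples were the alternatives.

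Equal numbers were read as subsets of 1 mouse, from the column names and methods, although the labels do not state it outright. Their deviations from the group means correlated by 0.045 (N+P C1 and C5), 0.104 (S+P C4 and C5), 0.171 (C4 and C7) and 0.111 (C5 and C7) on average, with single pairs as low as 0.017. For pairs with different numbers the averages were -0.022, -0.017, -0.025 and -0.019, with single pairs as high as 0.22. The main fit held no term for the mouse, also in contrasts between subsets of the same mice.

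The members and lists were chosen with earlier results of these data known. Named are the 4 members, each list gene called in a contrast and otherwise up to 3 per list by smallest p, and the genes nearest to *Tox* (8), *Tox2* and *Tox4* (5 each) in Spearman's rho of log2(CPM + 1).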

Additional observations from a re-analysis of the deposited data

Results flagged for a closer look

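Samples far from the rest of their group were looked for in 13 sets of a member and a group of 4 to 10 samples by Dixon's criterion, and 3 met it. Chance meets it in about 1 in 20 such sets of normally distributed values, a rate that does not hold for sets with most samples at 0, as for *Tox2* and *Tox3* here. *Tox2* reached 2.06 CPM in Sensitized replicate 3, against 0, 0 and 0.0260 CPM in the others, and all 68 of its counts came from 1 of 2 libraries. *Tox3* reached 0.228 CPM (7 counts) in S+P C7 replicate 4, where the other samples had none, and this sample also had the most genes detected, 26805. *Tox4* reached 324 CPM in S+P C4 replicate 3, against at most 99.5 CPM in the others, and 7436 genes were detected in that sample, the fewest of all 30.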

How the results depend on the processing

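The rise of *Tox* in S+P C5 over Sensitized cells was called under 11 of 12 alternatives (adjusted p = 0.167 without a filter on low counts) and in 30 of 30 fits without 1 sample. The rise in S+P C7 was called under 10 of 12 (adjusted p = 0.251 without the filter, 0.198 when only the groups compared were fitted) and in 26 of 30, and the number of members called there ranged from 0 to 1 without 1 sample. Without the filter 0 members were called in both contrasts. DESeq2 and the separate libraries, fitted with edgeR or DESeq2, called more members and more genes, in S+P C5 against Sensitized 5.32% of all genes with DESeq2, 6.86% with libraries in edgeR and 4.94% with libraries in DESeq2, beside 0.0712%. Each of the 3 called 2 members in S+P C5 and S+P C7 against Sensitized and between the N+P subsets. In the same order of settings, the shares of all genes were 3.49%, 4.59% and 4.73% for S+P C7 against Sensitized. Between the N+P subsets they were 3.82%, 0.169% and 3.33%. For N+P C5 over Naive each called 1, beside 4.91%, 0.653% and 5.11% of all genes. For S+P C4 over Sensitized each called 1, beside 4.68%, 4.66% and 4.23%. Within S+P mice each also called 1 for C5 over C4 (4.66%, 4.77% and 4.51%) and C7 over C4 (5.26%, 5.02% and 3.83%). In S+P C4 against N+P C1 the 3 settings called 1, 1 and 2 members, beside 4.77%, 2.9% and 6.21% of all genes. Libraries with DESeq2 also called 1 between Naive and N+P C1 (1.72% of all genes) and in each difference of contrasts (4.01% for pregnancy and 3.68% for the gate). Separate libraries treat technical duplicates as replicates. Fitting only the groups compared called 1 each in N+P C5 against Naive and N+P C1 cells (0.438% and 0.386% of all genes, beside 0.0407% and 0.00509%), and 0 in S+P C7 against Sensitized. Other causes were not tested.

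With the mouse as a replicate block, edgeR called 0 members in the 5 contrasts it allows, where *Tox* and *Tox2* had an unadjusted p under 0.05 in 3 of 4 comparisons of groups each. In these 4 comparisons, 344 to 1076 of the 17859 genes tested had such a p. *Tox* was then 1.71 higher in N+P C5 than C1, 1.88 and 1.51 higher in S+P C5 and C7 than C4, and the difference of gate contrasts turned from -0.19 to 0.17.

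The other changes of direction were in log2 differences that did not pass the test. For *Tox* in N+P C1 against Naive the value was 0.046 with library size alone, and -0.21 to 0.11 without 1 sample. Without 1 sample *Tox* ran from -0.41 to 0.033 in S+P C7 against C5 and from -0.40 to 0.041 in the difference of gate contrasts. *Tox2* in Sensitized against Naive was -0.45 and -0.49 with separate libraries in edgeR and DESeq2, -0.53 with all 56 columns and with the identical library kept in Naive, and -5.39 to 7.12 without 1 sample. Its difference of pregnancy contrasts ran from -5.37 to 7.14. *Tox2* kept its direction but moved from 3.97 to 11.66 in N+P C5 against Naive, and from 5.87 to 11.65 and 5.54 to 11.33 in S+P C5 and C7 against Sensitized. The high ends leave the second group with 0 or 1 count and depend on the prior count of the fit. *Tox4* in N+P C5 against Naive was -0.14 and -0.055 with libraries, and -0.23 to 0.23 without 1 sample. *Tox4* in S+P C7 was -0.008 against Sensitized with all columns, 0.012 against C4 and 0.27 against C5 without the samples of few genes, and 0.11 and 0.13 against C5 with libraries. Its difference of pregnancy contrasts was -0.021 with library size alone. Without 1 sample *Tox4* ran from -0.092 to 0.39 (S+P C5) and -0.18 to 0.46 (S+P C7) against Sensitized, from -0.93 to 0.05 and -1.08 to 0.017 against C4, from -0.36 to 0.29 in C7 against C5, and from -0.14 to 0.41 in the difference of pregnancy contrasts.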
